A study of Mus musculus with 9 samples.

Results

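The messenger RNA export machinery of the paraventricular nucleus (PVN) was followed through 10 genes: the adaptors Alyref and Alyref2, the helicase Ddx39b, the THO subunits Thoc1, Thoc2, Thoc3, Thoc5 and Thoc6, and the export receptor pair Nxf1 and Nxt1. They are 10 of 27179 genes in the count table, and all 10 passed the filter on low counts, as did 17344 genes in all. The family was chosen by the level of Alyref, which stood among the genes farthest below the other groups in HFD. Its levels in all 3 groups, and its calls and intervals below, are therefore a description and no test of a difference. The other 9 members were listed as its partners in export.

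A finished messenger RNA is carried out of the nucleus by TREX, the transcription and export complex. The THO subunits form its core and are loaded onto nascent RNA together with the RNA helicase Ddx39b (also called UAP56). Alyref binds the RNA and hands it to Nxf1, the receptor that passes through the nuclear pore as a pair with its cofactor Nxt1. Neurons use this route as all cells do, and loss of the THO subunit Thoc5 is known to harm dopaminergic neurons.

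Bulk RNA sequencing covered PVN punches of 9 wild-type male C57BL/6 mice (C57BL/6J in the study's methods), 3 in each of 3 groups, and each library came from a separate mouse. Control mice ate a chow or control diet with 16% of calories from fat and drank tap water. HFD mice ate a high-fat diet with 60% of calories from fat and drank tap water, and HFD+Mino mice ate the same diet with minocycline, a tetracycline antibiotic that dampens microglial activation, in their water at 40 mg/kg/day. The diets lasted 12 weeks and minocycline was given over the last 6 weeks, and the labels give postnatal day 35 in every group, which is the age of 5 weeks at which the diets began. The questions were whether the diet altered PVN transcripts and whether minocycline altered them on top of the diet. No group received minocycline with the control diet.

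Total counts were between 17728590 and 42326213 per library, lowest in HFD replicate 1. The mitochondrial genome took from 1.21% to 6.21% of counts, and Rn45s, the ribosomal RNA precursor, took 0.0266% to 0.0438% in Control, 0.350% to 0.430% in HFD and 0.0450% to 0.113% in HFD+Mino. Neuronal markers were present in every library (summed level of 5 genes between 3007 and 6455 counts per 1000000, CPM), but Otp was at 0 in at least 1 library and the summed level of 6 paraventricular markers ranged from 27.8 to 2563 CPM in Control, 2479 to 3726 CPM in HFD and 3104 to 37726 CPM in HFD+Mino. Markers of neighbouring hypothalamic nuclei summed to 33.4 to 3399 CPM in Control, 15.3 to 36.1 CPM in HFD and 32.6 to 158 CPM in HFD+Mino. Those of ependyma and choroid plexus did not overlap between groups, at 9.04 to 56.9 CPM in Control, 63.6 to 113.6 CPM in HFD and 116 to 192 CPM in HFD+Mino. The summed astrocyte markers did not overlap either, at 1560 to 1722 CPM in Control, 2096 to 2217 CPM in HFD and 961 to 1506 CPM in HFD+Mino. Those of microglia were 137 to 170, 199 to 216 and 130 to 183 CPM in the same order. Oligodendrocyte markers summed to 3315 to 27545 CPM in Control, 2271 to 6225 CPM in HFD and 1956 to 5354 CPM in HFD+Mino. The part of these differences in the results below was not tested. In bulk tissue, fewer cells of a type and less RNA per cell cannot be told apart.

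Sequence stretches are shown because they set Alyref apart from the rest of the family. Each is the most GC-rich 100 nt of the coding part of the longest coding transcript, from GENCODE M21 on the GRCm38 build, written 5′ to 3′ in the sense of the gene, and capitals mark unbroken runs of at least 8 G or C. Alyref is shown for its level in HFD, Alyref2 as its intronless close relative, Thoc3 as the THO subunit with the most GC-rich coding stretch, and Thoc5 as a subunit with a GC-poor one, below the median of all tested genes.
Alyref: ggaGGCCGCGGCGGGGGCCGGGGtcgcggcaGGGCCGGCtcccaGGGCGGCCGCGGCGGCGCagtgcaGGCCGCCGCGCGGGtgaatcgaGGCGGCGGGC
Alyref2: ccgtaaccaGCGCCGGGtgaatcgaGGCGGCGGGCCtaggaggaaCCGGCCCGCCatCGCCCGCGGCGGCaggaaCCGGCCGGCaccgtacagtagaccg
Thoc3: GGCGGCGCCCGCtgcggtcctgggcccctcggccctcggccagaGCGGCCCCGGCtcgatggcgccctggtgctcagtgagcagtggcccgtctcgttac
Thoc5: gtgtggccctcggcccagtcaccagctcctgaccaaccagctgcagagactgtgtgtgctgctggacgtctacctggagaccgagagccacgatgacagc
The Alyref stretch lies at chr11:120598179-120598278 on the minus strand, in exon 1 of 6, and holds 87% G and C with a longest run of 20 and 19 CG dinucleotides. That of Alyref2 lies at chr1:171503704-171503803 on the plus strand in its 1 exon and holds 74%, with a longest run of 13 and 16 CG dinucleotides. Thoc3 (chr13:54468706-54468805, minus strand, exon 1 of 6) holds 77%, and Thoc5 (chr11:4926084-4926183, plus strand, exon 19 of 20) holds 63% with a longest run of 6. The Alyref and Alyref2 stretches share 22 identical bases, cgggtgaatcgaggcggcgggc, at the end of the first and near the start of the second.

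Alyref (Entrez gene 21681, chr11:120594504-120598399 in RefSeq, GRCm38.p6), the adaptor that joins the messenger RNA to its export receptor, was far lower in HFD than in the other groups. Its level was 78.3, 64.8 and 57.5 CPM in Control replicates 1 to 3, 2.76, 3.60 and 2.89 CPM in HFD replicates 1 to 3, and 57.0, 57.2 and 68.8 CPM in HFD+Mino replicates 1 to 3. All 3 HFD libraries lay below all 6 others, and the Control and HFD+Mino ranges overlapped. The HFD values rested on 55, 124 and 116 reads, against 1539 to 3151 reads in the other 6 libraries. The mean was 66.8 ± 10.6 CPM in Control, 3.08 ± 0.450 CPM in HFD and 61.0 ± 6.79 CPM in HFD+Mino (SD, n = 3 each). The fitted level was 21.6-fold lower in HFD than in Control (log2 fold change −4.43 ± 0.25, SE) and 19.7-fold higher in HFD+Mino than in HFD (log2 fold change 4.30 ± 0.25). The log2 distance of HFD from the average over groups was −2.91, which ranked 8 from the lowest of 17344 genes.

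**Figure D1:**
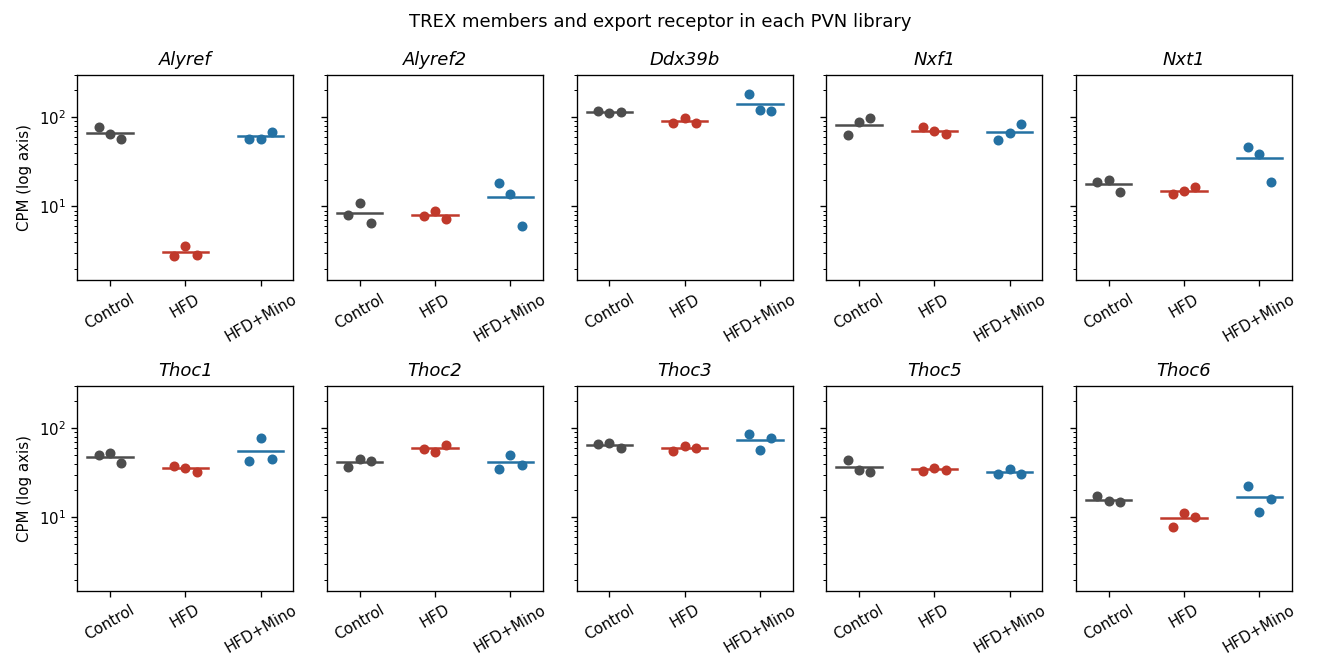
Level of the 10 genes in each of the 9 PVN libraries, in CPM on a log axis, with a point for each mouse and a line at the mean of the 3 mice of a group. The 3 HFD points of Alyref sit between 2.76 and 3.60 CPM, below all other Alyref points, while in every other gene the HFD points lie within or close to the range of the other groups.

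A gene was called in a comparison of 2 groups when the false discovery rate (FDR), from the quasi-likelihood test of edgeR adjusted by Benjamini-Hochberg over all 17344 genes, was under 0.01 and the fold was at least 1.5. In the 3-way test it was called when HFD was also the highest or lowest group, by 1.5-fold or more relative to the average of the log2 values over groups. In HFD against Control 1 of the 10 members was called, Alyref, against 1.74% of all tested genes called and 1.42% called lower. It was also the 1 member called in the 3-way test, where 2.13% of all genes were called and 1.21% were called lower, and in HFD+Mino against HFD, where 4.15% were called and 1.98% were called higher. Since the family was chosen through Alyref, these 3 counts are a description.

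Alyref2 (Entrez gene 56009, chr1:171503478-171504750), a retrogene copy of Alyref, did not share this pattern. Its level was 7.95, 11 and 6.56 CPM in Control, 7.78, 8.87 and 7.14 CPM in HFD, and 18.3, 13.9 and 6.01 CPM in HFD+Mino. The 3 groups overlapped. HFD against Control gave a log2 fold change of −0.10 with a 95% interval from −0.95 to 0.75. The coding sequences of both adaptors were 92.0% identical over 651 aligned bases, with a longest identical run of 57 bases, so a read of 50 nt could belong to either only in a short stretch. Exons of Alyref2 overlap those of B930036N10Rik on the opposite strand over 634 nt, the libraries do not keep strand, and the Alyref2 level is uncertain to that extent, whereas no annotated exon overlaps those of Alyref.

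Within a library the ratio of both adaptors needs no scaling to library size. There were 9.85, 5.88 and 8.75 Alyref reads per Alyref2 read in Control, 0.355, 0.405 and 0.404 in HFD, and 3.11, 4.11 and 11.5 in HFD+Mino. The order of the adaptors was thus turned round in all 3 HFD libraries, with more Alyref2 than Alyref reads. Per kilobase of exon the mean Alyref level was 17.4 CPM in Control, 0.803 CPM in HFD and 15.9 CPM in HFD+Mino, and the mean Alyref2 level 6.68, 6.23 and 10.0 CPM. These values use GENCODE exon lengths, and Alyref reaches further at its 3′ end in GENCODE than in RefSeq.

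**Figure D2:**
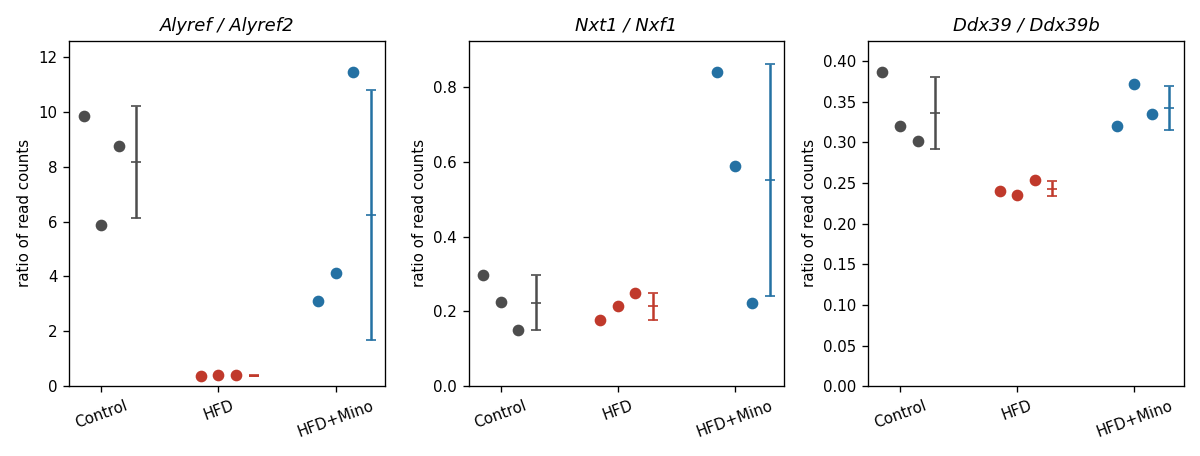
Ratios of read counts within each of the 9 libraries for 3 pairs of genes, with the mean and SD of the 3 mice beside the points of each group. The Alyref to Alyref2 ratio is below 1 in the 3 HFD libraries only, the Nxt1 to Nxf1 ratio is highest in HFD+Mino replicates 1 and 2, and the Ddx39 to Ddx39b ratio is lowest in HFD.

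Ddx39b (Entrez gene 53817, chr17:35241746-35253707), the helicase that recruits Alyref to the RNA, differed little by comparison. Its level was 118, 112 and 114 CPM in Control, 87.4, 98.4 and 85.7 CPM in HFD, and 185, 121 and 119 CPM in HFD+Mino. The HFD libraries lay below all 6 others, and HFD+Mino replicate 1 stood apart at the top. The log2 fold change was −0.34 ± 0.22 in HFD against Control (95% interval −0.82 to 0.14) and 0.65 ± 0.22 in HFD+Mino against HFD (0.17 to 1.13), and neither was called.

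Of the THO subunits, Thoc1 (Entrez gene 225160, chr18:9958180-9995484) and Thoc6 (Entrez gene 386612, chr17:23668618-23673917) were lowest in HFD. Thoc1 was at 50.5, 52.4 and 41.0 CPM in Control, 37.2, 36.0 and 32.6 CPM in HFD, and 43.0, 78.0 and 45.3 CPM in HFD+Mino. Thoc6 was at 17.4, 15 and 14.7 CPM in Control, 7.83, 11.3 and 10.0 CPM in HFD, and 22.7, 11.4 and 16.2 CPM in HFD+Mino. In both genes the HFD libraries lay below all others, for Thoc6 by as little as 11.3 CPM against 11.4 CPM. The log2 fold change in HFD against Control was −0.44 ± 0.26 for Thoc1 (95% interval −1.01 to 0.12) and −0.69 ± 0.29 for Thoc6 (−1.33 to −0.06), and neither was called. Exons of Thoc1 and Usp14 on opposite strands overlap over 2169 nt and those of Thoc6 and Hcfc1r1 over 287 nt, so reads of these pairs cannot be told apart without strand.

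Thoc2 (Entrez gene 331401, chrX:41794992-41911937), the large scaffold of THO, lay the other way. Its level was 36.7, 45.3 and 42.4 CPM in Control, 58.4, 53.7 and 65.2 CPM in HFD, and 34.8, 50.6 and 38.6 CPM in HFD+Mino. All HFD libraries were above all others. The log2 fold change was 0.51 ± 0.21 in HFD against Control and −0.52 ± 0.21 in HFD+Mino against HFD, neither was called, and with each library's trend on exon length removed they were 0.04 and 0.09. Its exons cover 12666 nt, more than those of 95.7% of the tested genes, and it is the longest of the family.

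Thoc3 and Thoc5, further subunits of THO, had overlapping levels in the 3 groups. Thoc3 (Entrez gene 73666, chr13:54458837-54468840) ranged from 59.9 to 68.6 CPM in Control, 55.0 to 62.8 CPM in HFD and 56.8 to 85.2 CPM in HFD+Mino. Thoc5 (Entrez gene 107829, chr11:4895283-4928867) ranged from 32.4 to 43.5, 33.3 to 36.1 and 30.6 to 35.2 CPM. The overlap held for every pair of groups in both genes. In HFD against Control the log2 fold change was −0.14 (95% interval −0.59 to 0.32) for Thoc3 and −0.09 (−0.54 to 0.36) for Thoc5. These intervals leave room for folds near the threshold of 1.5 downward, so a modest difference was not detectable, but not for one of the size seen in Alyref.

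Nxf1 (Entrez gene 53319, chr19:8757103-8770910), the export receptor itself, was at 64.1, 87.7 and 97.1 CPM in Control, 77.6, 69.5 and 65.6 CPM in HFD, and 55.1, 66.4 and 84.7 CPM in HFD+Mino. The 3 groups overlapped. The log2 fold change was −0.23 ± 0.23 in HFD against Control and −0.04 ± 0.23 in HFD+Mino against HFD.

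Nxt1 (Entrez gene 56488, chr2:148672615-148676026), the small cofactor of Nxf1, had, after Alyref, the largest difference in the family between HFD+Mino and HFD. Its level was 19.1, 19.6 and 14.5 CPM in Control, 13.9, 14.8 and 16.4 CPM in HFD, and 46.4, 39.2 and 18.9 CPM in HFD+Mino. HFD+Mino replicates 1 and 2 stood far above every other library, and HFD+Mino replicate 3 lay inside the Control range. The log2 fold change in HFD+Mino against HFD was 1.21 ± 0.32 (95% interval 0.51 to 1.90) and was not called. It was called with DESeq2 (1.22), with the edgeR likelihood ratio test (1.21), with a block for the replicate number in Control and HFD+Mino (1.12), and without HFD+Mino replicate 3 (1.51). The calls over all genes under these settings are not set beside these calls, so they are no further support. With the trend on exon length removed it was 0.19. The exons of Nxt1 cover 1116 nt, and only 5.41% of the tested genes are shorter.

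There were 0.297, 0.224 and 0.150 Nxt1 reads per Nxf1 read in Control, 0.178, 0.214 and 0.251 in HFD, and 0.841, 0.590 and 0.223 in HFD+Mino. The ratio thus lay between 0.150 and 0.297 in all libraries except HFD+Mino replicates 1 and 2.

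**Figure D3:**
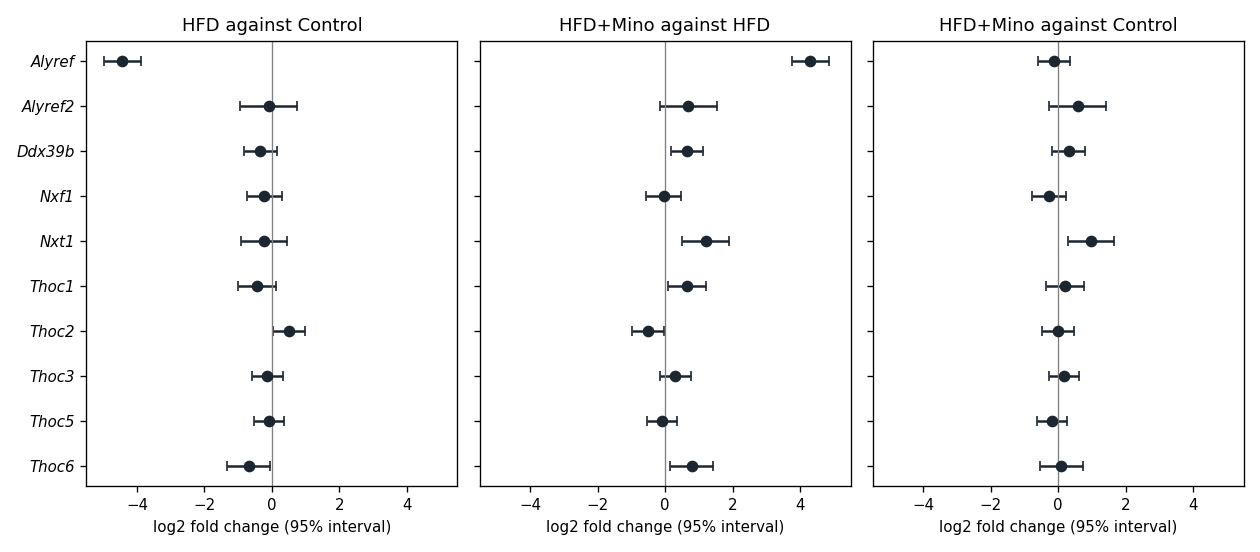
Log2 fold change of the 10 genes in the 3 comparisons of groups, with 95% intervals from edgeR's quasi-likelihood fit to all 9 libraries. Alyref stands alone at −4.43 and 4.30 in the comparisons with HFD and returns to −0.13 in HFD+Mino against Control, where the interval of Nxt1 alone leaves out 0.

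The 9 members other than Alyref did not all move in the same direction, as Thoc2 alone had a log2 fold change above 0 in HFD against Control. Their summed level was 430.6 ± 12.7 CPM in Control, 382 ± 8.33 CPM in HFD and 477 ± 42.2 CPM in HFD+Mino (SD, n = 3 each). The sum was lower in every HFD library than in every library of the other groups. How often sums of other sets of genes separate in this way was not tested. In HFD against Control 9 of the 10 members, Alyref among them, had a log2 fold change under 0, as had 8623 of the 17344 tested genes. The median of the 10 was −0.23 against 0.00 over all tested genes. With the trend on exon length removed, those of Alyref2, Thoc3 and Thoc5 were 0.12, 0.06 and 0.07, and without Control replicate 2 or 1 those of Alyref2 and Thoc5 were 0.14 and 0.05. Complete separation with HFD lowest was seen in Alyref, Ddx39b, Thoc1 and Thoc6, 4 of 10 members against 9.62% of all genes, and with HFD highest in Thoc2, 1 of 10 against 13.4%. In HFD+Mino against HFD the median was 0.65 against 0.01 over all tested genes, and 5 members (Alyref, Ddx39b, Nxt1, Thoc1 and Thoc6) lay wholly above their HFD libraries, against 23.3% of all genes, while Thoc2 lay wholly below, against 23.5%. The sign count, both medians and the counts of separation include Alyref, whose low level in HFD is how the family was chosen.

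The choice through Alyref compared all 3 groups, so the Alyref values in HFD+Mino against Control are a description too. By edgeR's quasi-likelihood test 0 of the 10 members were called, as were 0% of all tested genes, and DESeq2 and the likelihood ratio test also called 0 members. At an unadjusted p under 0.05 there was 1 member, Nxt1, against 21.3% of all genes. Nxt1 had a log2 fold change of 0.97 ± 0.32 (95% interval 0.28 to 1.66, FDR 0.143 from edgeR), and without HFD+Mino replicate 3 the value was 1.26 and was called (FDR 0.00631 from edgeR). For Alyref the log2 fold change was −0.13 with a 95% interval from −0.60 to 0.33, given without a test. Ddx39b was the member whose HFD+Mino libraries all exceeded the Control libraries (8.93% of all genes; 10.1% lay wholly below, and no member did), at a log2 fold change of 0.31 ± 0.22.

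Per kilobase of exon, the mean Control levels ran from Ddx39b (30.3 CPM) and Thoc3 (26.7) through Nxf1 (18.7), Alyref (17.4), Nxt1 (15.9) and Thoc5 (12.8) to Thoc6 (7.75), Alyref2 (6.68), Thoc1 (5.37) and Thoc2 (3.27). Alyref differed from Nxf1 before it and Nxt1 after it by less than the SD of any of these 3 (2.75, 3.85 and 2.50 CPM per kilobase), and Thoc6 and Thoc1 differed from Alyref2, between them, by less than its SD (1.79). In HFD, Alyref took the last place at 0.803 CPM per kilobase, below Thoc1 at 3.95, and in HFD+Mino it was at 15.9, next to Nxf1 at 15.5. By this measure the export adaptor ranked near its receptor in 2 groups and below every THO subunit in HFD. The exon lengths are those of GENCODE, where Alyref spans chr11:120592121-120598365 and so reaches further at its 3′ end than in RefSeq. The annotation behind the counts is not given, so its level per kilobase may be understated. The order of genes depends on the exon lengths used, and what part they have in it was not tested.

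The other TREX components and adaptors comprised 7 genes in the table, and none was called in HFD against Control by edgeR's quasi-likelihood test (3 at an unadjusted p under 0.05, against 20.5% of all genes), DESeq2 or the likelihood ratio test, while the fit with the replicate block in Control and HFD+Mino called Ddx39. Ddx39, the close relative of Ddx39b now named Ddx39a, was at 45.5, 35.8 and 34.6 CPM in Control, 21, 23.1 and 21.7 CPM in HFD, and 59.1, 45.1 and 39.9 CPM in HFD+Mino. The HFD libraries lay below all others, and it rose in HFD+Mino against HFD (log2 fold change 1.13 ± 0.23, FDR 0.00954 from edgeR). In HFD against Control its value was −0.82 ± 0.22 (FDR 0.0593 from edgeR), and with that block −0.80 (FDR 0.00928 from edgeR). How many of all genes that block called in this comparison is not given here. There were 0.387, 0.320 and 0.302 Ddx39 reads per Ddx39b read in Control, 0.241, 0.235 and 0.254 in HFD, and 0.320, 0.372 and 0.335 in HFD+Mino. Exons of Ddx39 overlap those of Adgre5 on the opposite strand over 895 nt.

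The remaining 6 of these genes were not called in any comparison by edgeR's quasi-likelihood test, while DESeq2 and the likelihood ratio test called Thoc7, Sarnp and Poldip3 in HFD+Mino against HFD. Those alternative tests also called more of the listed pathway genes than the main fit did. Their calls over all genes are not given for this comparison, so these calls are no result about the named genes. Thoc7, a THO subunit, had a log2 fold change of −0.64 ± 0.33 in HFD against Control and 1.19 ± 0.34 in HFD+Mino against HFD. Sarnp, an RNA-binding TREX protein, had −0.83 ± 0.34 and 1.69 ± 0.34 (FDR 0.195 and 0.0103 from edgeR). Poldip3, a further TREX component, lay the other way, at 167 ± 9.35 CPM in HFD against 104.7 ± 25.1 CPM in Control and 83.5 ± 26.0 CPM in HFD+Mino. Chtop (0.19 and −0.40) and Fyttd1 (0.15 and −0.59), adaptors that bind Nxf1, and the TREX component Zc3h11a (0.27 and −0.26) differed less in both comparisons.

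The wider export pathway was read from 8 lists of 55 gene names, of which 53 were in the table and 52 were tested. The names not in the table, Ddx39a and Nup42, are newer names of Ddx39 and Nupl2, which were listed too. In HFD against Control 1 of the 52 was called by edgeR, Srsf2, against 1.74% of all genes. Srsf2 (Entrez gene 20382, chr11:116849897-116853675), a serine/arginine-rich splicing factor listed with the export adaptors of its family, was at 153, 174 and 134 CPM in Control, 26.0, 34.7 and 25.9 CPM in HFD, and 122, 121 and 179 CPM in HFD+Mino. As for Alyref, the 3 HFD libraries lay far below the other 6. It fell by 2.41 on the log2 scale in HFD against Control (SE 0.25, FDR 0.000418 from edgeR) and rose by 2.28 in HFD+Mino against HFD (SE 0.24, FDR 0.000745 from edgeR). The other SR proteins listed, Srsf1, Srsf3 and Srsf7, were not called, and exons of Srsf2 overlap those of Mettl23 over 460 nt and Mfsd11 over 288 nt on the opposite strand.

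In the 3-way test 2 of the 52 were called, Srsf2 below and Zc3h18 above (0.917% of all genes were called above), and leaving out any 1 of the HFD replicates gave 0. Zc3h18, a partner of the cap-binding complex, was at 6.38, 5.36 and 12 CPM in Control, 24.1, 26.6 and 27.6 CPM in HFD, and 6.57, 6.84 and 9.48 CPM in HFD+Mino, with all HFD libraries above all others. In HFD+Mino against HFD 6 of the 52 were called, against 4.15% of all genes: Srsf2 and Ddx39 rose, and Zc3h18, Nup214, Xpo5 and Xpot fell, where 2.16% of all genes were called lower. The log2 fold change was −1.77 ± 0.33 for Zc3h18, −1.43 ± 0.27 for the pore protein Nup214, −1.99 ± 0.36 for Xpo5, the exporter of microRNA precursors, and −1.14 ± 0.22 for Xpot, the exporter of transfer RNA (FDR between 0.00785 and 0.00919 from edgeR). Without Control replicate 2, any HFD replicate, or HFD+Mino replicate 1 or 2, the number called was 0 or 1, and without HFD+Mino replicate 3 it was 20. The calls over all genes in these fits are not set beside these counts. With the trend on exon length removed the number called was 2, Srsf2 and Ddx39, and the calls of Zc3h18, Nup214, Xpo5 and Xpot were lost. In HFD+Mino against Control edgeR's quasi-likelihood test called 0 of the 52 (12 at an unadjusted p under 0.05, against 21.3% of all genes), the likelihood ratio test 0, DESeq2 1 and the fit with the replicate block in Control and HFD+Mino 4.

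By list, the median log2 fold change in HFD against Control was 0.15 for the other TREX genes, 0.38 for the cap-binding complex, 0.07 for the exon junction complex, −0.06 for the TREX-2 complex, −0.18 for the SR adaptors, 0.43 for pore-side release and docking and 0.39 for the other export receptors, beside 0.00 over all tested genes. In HFD+Mino against HFD they were −0.26, −0.65, 0.37, 0.82, 0.21, −0.47 and −0.86, beside 0.01. The 2 comparisons share the HFD libraries. The number called was 0 or 1 in each list except the export receptors, with 2 called in HFD+Mino against HFD.

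**Figure D4:**
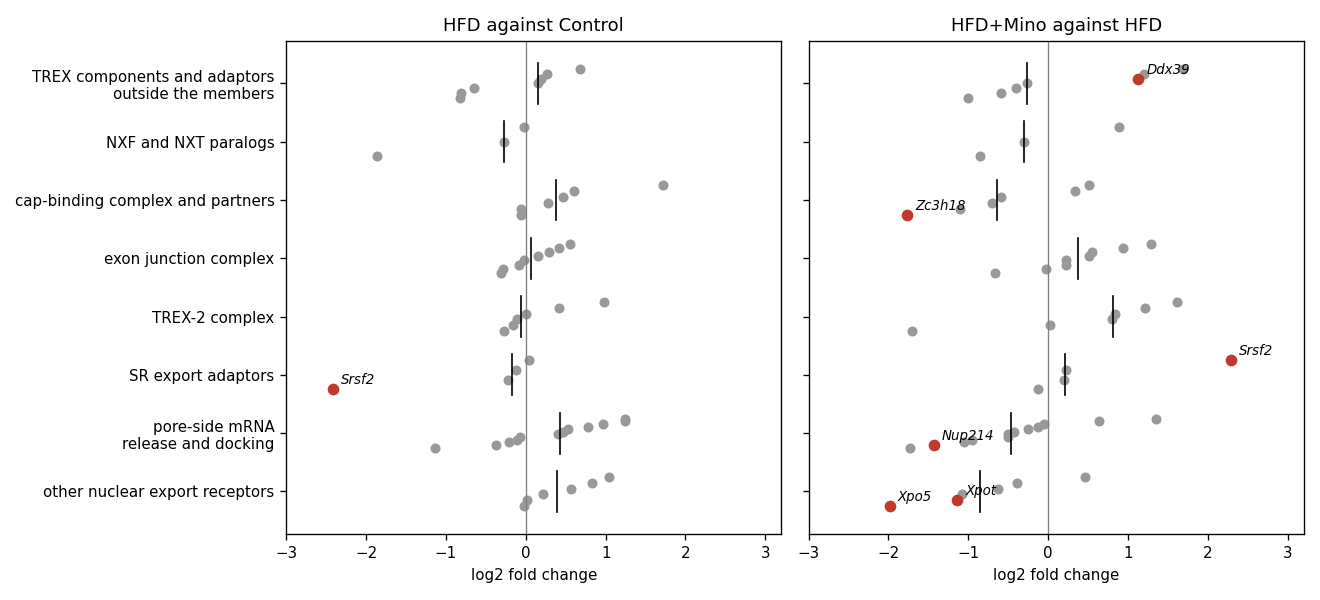
Log2 fold change of the 52 tested genes of the export pathway outside the family, by list, in HFD against Control and HFD+Mino against HFD, with called genes in red and named and a line at the median of each list. Srsf2 is the 1 called gene in HFD against Control, at −2.41, and 6 are called in HFD+Mino against HFD.

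The 5 tested genes whose profile over the 9 libraries lay nearest to that of Alyref were Otulin, Dexi, Tmem243, Zmynd19 and Ube2m. The root mean square difference of log2 CPM, each gene centred on its own mean, was 0.25 for Otulin, 0.29 for Dexi, 0.32 for Tmem243, 0.35 for Zmynd19 and 0.43 for Ube2m, against a median of 2.13 over all other tested genes. Otulin was at 26.9 to 32.8 CPM in Control, 1.20 to 2.20 CPM in HFD and 19.0 to 36.1 CPM in HFD+Mino, and Ube2m at 143 to 244, 11.4 to 15.3 and 90.5 to 189 CPM. None of the 5 is on the lists of the export pathway.

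These 5 genes and Alyref had in common a very GC-rich stretch. It was not used to find them, but the profile of Alyref, low in HFD, was. The most GC-rich 100 nt of the longest coding transcript held 87% G and C in Alyref, Otulin and Dexi, 88% in Tmem243 and Zmynd19 and 89% in Ube2m, against a median of 72% over all tested genes. The genes called lower in HFD in the test over all groups include Alyref and these 5. Over the 206 of them with such a value the median was 87%, with quartiles of 85% and 88%. A stretch this GC-rich was thus common among genes low in HFD and not particular to Alyref and these 5. The stretch of Alyref exceeded that of 95.5% of tested genes and is the one printed above. In the family Ddx39b held 83%, Thoc3 82%, Alyref2 74%, Nxt1 70%, Nxf1 69%, Thoc6 68%, Thoc1 67%, Thoc5 63% and Thoc2 59%, with part of these stretches outside the coding sequence, and Srsf2 held 85%.

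Over all tested genes with such a value, the share called lower in the 3-way test was at most 0.794% in any bin below 85%, 10.4% of the 1191 genes from 85% to 90% and 16.6% of the 199 genes at 90% or more. Of the 752 genes at or above the 87% of Alyref, 106 were called lower (14.1%) and 4 higher, and Alyref was the 4th lowest of them. Alyref was the 1 member above 85%. After removal of each library's trend on this stretch, which was tried once the data had been seen, the Alyref log2 fold change was −3.95 in HFD against Control and 4.08 in HFD+Mino against HFD, given as a description like the values without it. The removed trend is a smooth curve through all genes, and the median log2 distance in the bin from 85% to 90% was −0.28. Its removal cannot take out a difference confined to part of the GC-rich genes. What part the GC-rich stretch has in the Alyref counts was not tested.

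**Figure D5:**
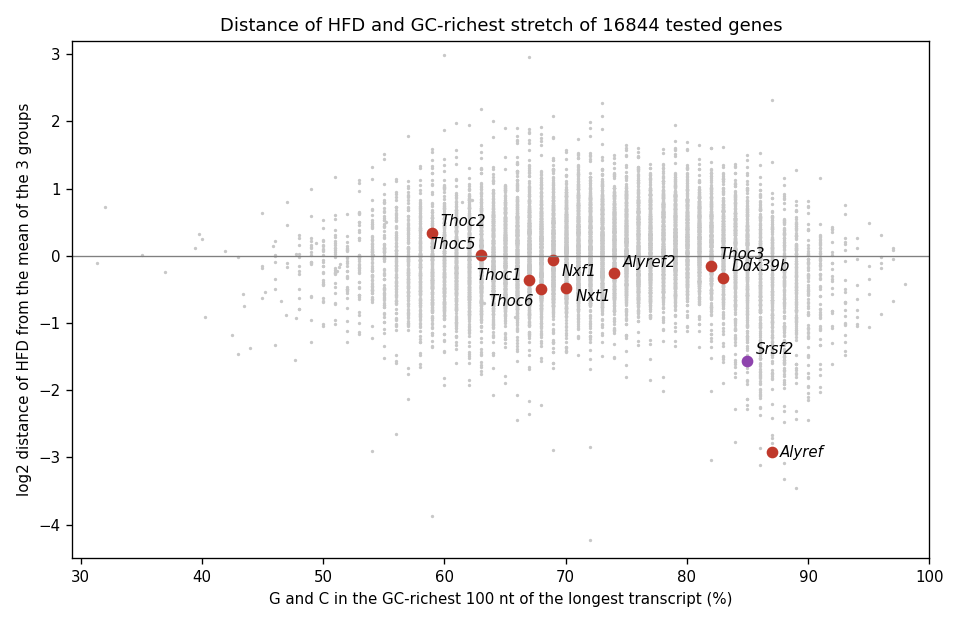
Distance of HFD from the average over the 3 groups on the log2 scale, against the GC content of the most GC-rich 100 nt of the longest coding transcript, with a grey point for each of 16844 tested genes, the 10 members in red and Srsf2 in purple. Alyref, at 87% and −2.91, lies in the downward spread of genes above 85%, while the other 9 members lie below 85% and between −0.49 and 0.34.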

How the data were processed

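Reads (2 × 50 nt) were made from total RNA with the SMARTer Ultra Low Input and Nextera XT kits, which do not keep strand. The authors aligned them to mm10 with HISAT2 and deposited featureCounts gene counts, not normalized. Strand and multimapping settings and versions are not given in the sources used here. No column was left unused.

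Counts were fitted with edgeR 4.0.16 in R 4.3.3 (filterByExpr, TMM, quasi-likelihood, group as the only term, all 9 libraries). CPM uses TMM-scaled library sizes, SE is the log2 fold change divided by the square root of F, and 95% intervals use 11.2 degrees of freedom. DESeq2 1.42.0 was an alternative. Exon length and sequence came from GENCODE M21 (25523 genes matched), positions from RefSeq GRCm38.p6 (25275 matched). Code was tested on simulated data.

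All members were named, with listed pathway genes called in a comparison, all measured TREX genes, and the 5 profiles nearest to Alyref (offset of 0.1 CPM). Members and lists were chosen with earlier results of these data known. Deviations from the group mean correlated weakly between same-numbered libraries of Control and HFD+Mino (0.135, 0.163 and 0.292). Between same-numbered libraries involving HFD the correlations were −0.152 to −0.006. Differently numbered libraries were not compared, so a pairing of libraries is not established. The HFD replicate numbers follow the sample titles, however, and differ from the numbers of the HFD count columns. Libraries of HFD and of the other groups with the same column number were therefore not compared. Between replicates, chi-square over its degrees of freedom was 21 to 316, far above counting noise. Reads carry no molecular identifiers, so PCR duplicates were not removed by them.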

Additional observations from a re-analysis of the deposited data

How the results depend on the processing

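Because Alyref was chosen by its level in HFD, its values under the alternatives are a description and no support for the difference. Its log2 fold change ranged from −4.57 to −3.95 over 21 alternatives in HFD against Control and from 4.08 to 4.43 over 21 in HFD+Mino against HFD. The number of members called in HFD+Mino against HFD was 2 rather than 1 with DESeq2, the likelihood ratio test and the replicate block in Control and HFD+Mino alone, and 3 at an FDR under 0.05. The calls over all genes under these settings are not set beside these counts. Leaving out 1 replicate gave 1 to 1 members in the 3-way test and HFD against Control, 1 to 2 in HFD+Mino against HFD and 0 to 1 in HFD+Mino against Control, the higher values without HFD+Mino replicate 3. The block over all 9 libraries, which used the replicate numbers of the titles, changed no member's call. In HFD these differ from the numbers of the count columns.

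Counts of called pathway genes depended more on the settings. The calls over all genes under each setting are not set beside them here, so a higher count is no result about the pathway. In the 3-way test (2) they were 12 with DESeq2, the likelihood ratio test, the block in Control and HFD+Mino alone and an FDR under 0.05, 7 without a filter, 4 with the GC trend removed and 1 with the length trend removed. In HFD against Control (1) they were 6 with DESeq2 and the block in Control and HFD+Mino alone, 5 at an FDR under 0.05, 4 with the likelihood ratio test, and 2 without a filter, at a mean count of 50, with the block over all samples and with the GC trend removed. In HFD+Mino against HFD (6) they were 22 with the block in Control and HFD+Mino alone and at an FDR under 0.05, 20 with DESeq2, 18 with the likelihood ratio test, 12 without a filter and with the GC trend removed, 11 with the block over all samples and 2 with the length trend removed. In HFD+Mino against Control (0) they were 1 with DESeq2 and 4 with the block in Control and HFD+Mino alone. Leaving out 1 replicate gave 0 to 13, 1 to 3, 0 to 20 and 0 to 3 in these comparisons, highest without HFD+Mino replicate 3 except in HFD against Control, highest without Control replicate 3. The cause was not tested. The Alyref level in HFD rests on 55 to 124 reads a library, and what depth does to its fold was not tested.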

Other observations

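TREX-2, the complex that ties transcribed genes to the nuclear pore, held 6 tested genes, and 0 were called in HFD+Mino against Control by edgeR's quasi-likelihood test (4 at an unadjusted p under 0.05, against 21.3% of all genes). The likelihood ratio test called 0 of them and 106 genes in all, and DESeq2 called 1 (Cetn2, 1.26) and 276 genes in all. Their median log2 fold change was 0.87, beside −0.02 over all tested genes. With the replicate block in Control and HFD+Mino alone, which called 551 genes in all, Sem1 (1.26), Cetn2 (1.20) and Cetn3 (1.05) were called, and so was Magoh of the exon junction complex (1.14). Without HFD+Mino replicate 3, where 1120 genes were called in all, those called on these lists were Sem1 (1.69), Cetn2 (1.45) and Magohb (1.54), a further exon junction gene.

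The tissue-restricted receptors Nxf2, Nxf3 and Nxf7 were at 0 in at least 1 library each and at 2.61 CPM or less in every library, and Nxt2, a relative of Nxt1, was at 47.6 to 114 CPM.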
